A study of Mus musculus with 7 samples.

Results

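The 10 genes described here encode enzymes that break down cysteine and oxidise hydrogen sulfide: Ethe1, Sqor, Tst, Mpst, Suox, Cth, Cbs, Cdo1, Csad and Got1. They were chosen by symbol, and all 10 were found by Ensembl identifier among the 45706 genes of the deposited tables. RNA had been measured in kidneys of 7 mice, all male, Slc7a9-/- and aged 6 months. In 4 mice (ergothioneine) the drinking water carried L-ergothioneine, a thiol antioxidant taken up from food, at 16 mg/kg/day, and 3 mice (untreated) received none. Both groups carry the same Slc7a9-/- genotype, a mouse model of cystinuria: Slc7a9 encodes b0,+AT, the transport subunit through which the tubule takes cystine back from the urine. No value here sets the model against wild-type kidney. The labels number the mice within a group and give no strain, litter, cage, length of treatment or time of collection.

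Mammalian cells make cysteine from homocysteine and dispose of it by several routes. One oxidises the thiol to cysteine sulfinate and on to taurine, a major osmolyte of kidney. Another strips the sulfur off as hydrogen sulfide or as a sulfur atom passed between proteins, and mitochondria then burn the sulfide to sulfite, thiosulfate and sulfate, since free sulfide blocks cytochrome c oxidase. The proximal tubule reabsorbs filtered cystine and is rich in mitochondria.

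Slc7a9 itself had 119, 166, 162 and 103 counts in the ergothioneine libraries and 98, 95 and 105 in the untreated libraries. It did not pass the test (edgeR, adjusted p = 0.378), and as the disrupted part of the gene is not labelled, these counts cannot check the genotype. Libraries held 14843899 to 19791575 counts. All 12 proximal tubule markers of the list used were tested, and their summed level was 9296 to 10223 rescaled TPM in ergothioneine kidneys against 9401 to 12093 in untreated ones. Rescaled TPM are the authors' length-normalised values brought back to a fixed sum after short non-coding RNA was left out. This RNA took 37.5% to 48.5% of the deposited TPM in the ergothioneine libraries and 12.2%, 16.2% and 48.7% in untreated libraries 1, 2 and 3.

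Of the 10 genes, Ethe1 and Got1 were higher in ergothioneine kidneys and none was lower at an adjusted p under 0.05 by edgeR's quasi-likelihood test. Among all 15399 genes tested, 7.16% were called, 3.58% as higher and 3.57% as lower. At an unadjusted p under 0.05, 3 of the 10 were higher, Cbs being the other gene, and 0 lower, where 20.8% of all tested genes passed, 10.4% as higher and 10.4% as lower. DESeq2 called 2 of the 10 higher and 0 lower. Of the 16247 genes to which it gave an adjusted p, it called 545 higher and 598 lower. The 10 genes had a median log2 fold change of -0.03 and a median absolute value of 0.14, and all tested genes had -0.0031 and 0.13. The other 8 genes did not pass.

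The promoters of the 2 called genes are shown because they are the DNA next to the annotated starts of these genes. The call of Got1 did not hold under all settings, as given below. Counts are per gene, so they do not tell which annotated start was used. RefSeq (GRCm38.p6) gives windows of 300 bases, 250 before to 50 after each annotated start, for 7 of the 10 genes, with no entry matched for Tst, Cth and Cdo1. Ethe1 has an upstream start, in the window chr7:24587293-24587592 on the plus strand, and a downstream start, in chr7:24593658-24593957, whose capitals mark the annotated start codon, 23 bases past the start. Got1 lies on the minus strand, with the window chr19:43524556-43524855, where capitals mark the one motif match found.
Ethe1, upstream start: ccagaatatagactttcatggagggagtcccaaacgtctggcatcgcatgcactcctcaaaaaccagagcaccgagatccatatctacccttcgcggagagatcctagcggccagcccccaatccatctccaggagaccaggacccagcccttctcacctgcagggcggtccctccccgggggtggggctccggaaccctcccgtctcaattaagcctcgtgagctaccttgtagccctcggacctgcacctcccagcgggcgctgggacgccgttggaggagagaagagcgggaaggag
Ethe1, downstream start: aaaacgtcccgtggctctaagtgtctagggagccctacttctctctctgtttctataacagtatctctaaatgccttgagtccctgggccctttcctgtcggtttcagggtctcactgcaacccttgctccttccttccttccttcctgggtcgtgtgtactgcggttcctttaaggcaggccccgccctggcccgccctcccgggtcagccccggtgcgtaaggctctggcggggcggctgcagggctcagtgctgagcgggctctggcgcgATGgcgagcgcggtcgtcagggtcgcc
Got1: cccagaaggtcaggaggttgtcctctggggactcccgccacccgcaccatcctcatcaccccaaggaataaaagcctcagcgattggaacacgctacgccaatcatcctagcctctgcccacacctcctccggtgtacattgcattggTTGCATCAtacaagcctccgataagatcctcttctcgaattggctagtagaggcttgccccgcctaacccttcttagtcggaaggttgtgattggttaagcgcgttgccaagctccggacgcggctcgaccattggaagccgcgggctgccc
In each window 5 motifs were searched on both strands: the core of the antioxidant response element (TGACNNNGC), the E-box bound by clock factors (CACGTG), the D-box (TTATGTAA), the cyclic AMP response element (TGACGTCA) and the amino acid response element bound by ATF4 (TGATGCAA). Neither Ethe1 window holds any of the 5. The Got1 window holds the amino acid response element on the opposite strand, starting 102 bases before the start site, and 0.895% of 32851 promoter windows hold it. In the other genes the Cbs window holds an E-box (7.15% of windows) and the second of 3 Mpst windows an antioxidant response core (12.4% of windows). The D-box and the cyclic AMP element were found in none of the windows searched, and stand in 0.938% and 1.79% of all windows.

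Sulfide oxidation starts with Sqor, the sulfide:quinone oxidoreductase of the inner mitochondrial membrane, which turns sulfide into a persulfide and passes the electrons to coenzyme Q. Sqor (chromosome 2, 122765237 to 122809569, GRCm38) stood at 77.1, 70.2, 72.2 and 68.4 CPM in ergothioneine kidneys, against 77.2, 84.8 and 74.1 CPM in untreated ones. CPM are counts scaled to equal library size by TMM. The groups overlapped, and the log2 fold change of -0.13 ± 0.06 (SE) did not pass (edgeR, adjusted p = 0.278, 95% interval -0.27 to 0.0085).

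Ethe1 encodes the next enzyme, the persulfide dioxygenase that oxidises glutathione persulfide to sulfite and whose loss in humans causes ethylmalonic encephalopathy with sulfide build-up. Ethe1 (chromosome 7, 24587543 to 24608925, plus strand) stood at 83.9, 81.0, 80.5 and 70.9 CPM in ergothioneine kidneys, against 46.9, 52.0 and 50.3 CPM in untreated ones. Every ergothioneine kidney was above every untreated one, and the lowest ergothioneine kidney was number 4. The means were 79.1 ± 5.67 CPM (SD, n = 4) in ergothioneine and 49.7 ± 2.61 CPM (SD, n = 3) in untreated kidneys. The log2 fold change was 0.67 ± 0.07 (SE; 95% interval 0.52 to 0.82; edgeR adjusted p = 1.40e-05), a rise of 59.2%. By adjusted p it was number 30 of the 15399 genes, while 4.33% of genes had an absolute log2 fold change as large or larger. These values rest on 1300 to 1601 counts per ergothioneine library and 776 to 827 per untreated library, all whole numbers in the deposited table.

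The rise of Ethe1 was as large without the untreated libraries that stood apart in short non-coding RNA. Against untreated library 3 alone its log2 fold change was 0.66 (edgeR adjusted p = 0.00165, the lone library being assumed to vary like the others), and without each library in turn it was 0.63 to 0.72 with adjusted p-values of 5.15e-06 to 0.000202. In the deposited TPM the groups overlapped, with 65.1, 57.3, 58.6 and 48.7 TPM in ergothioneine kidneys and 52.2, 53.3 and 36.3 TPM in untreated ones. On log2(TPM + 1) the difference was 0.29 (limma adjusted p = 0.26), on a scale where the median of all tested genes was shifted by -0.31. On rescaled TPM it was 0.67 (limma adjusted p = 0.00431), with 104, 109, 103 and 94.6 in ergothioneine kidneys and 59.5, 63.6 and 70.7 in untreated ones.

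Downstream of the persulfide, Tst encodes rhodanese, a mitochondrial sulfurtransferase that moves sulfur between glutathione persulfide, thiosulfate and sulfite. Tst (chromosome 15, 78399556 to 78405907, minus strand) stood at 41.8, 40.6, 51.5 and 45.6 CPM in ergothioneine kidneys, against 63.9, 49.8 and 42.1 CPM in untreated ones. Untreated library 1 was the highest and the groups overlapped (log2 fold change -0.21 ± 0.15, edgeR adjusted p = 0.485). Against untreated library 3 alone the sign turned, to 0.09 (adjusted p = 0.757).

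Suox encodes the molybdenum-dependent sulfite oxidase of the intermembrane space, which makes sulfate and hands electrons to cytochrome c. Suox (chromosome 10, 128669894 to 128674073, minus strand) stood at 58.1, 56.6, 61.3 and 54.9 CPM in ergothioneine kidneys, against 70.6, 56.0 and 64.4 CPM in untreated ones. The untreated kidneys spanned the whole range of the ergothioneine kidneys except the lowest, and the difference of -0.14 ± 0.07 did not pass (edgeR adjusted p = 0.294). Of the 4 genes of sulfide oxidation, Ethe1 alone passed, and the other 3 had negative estimates.

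**Figure D1:**
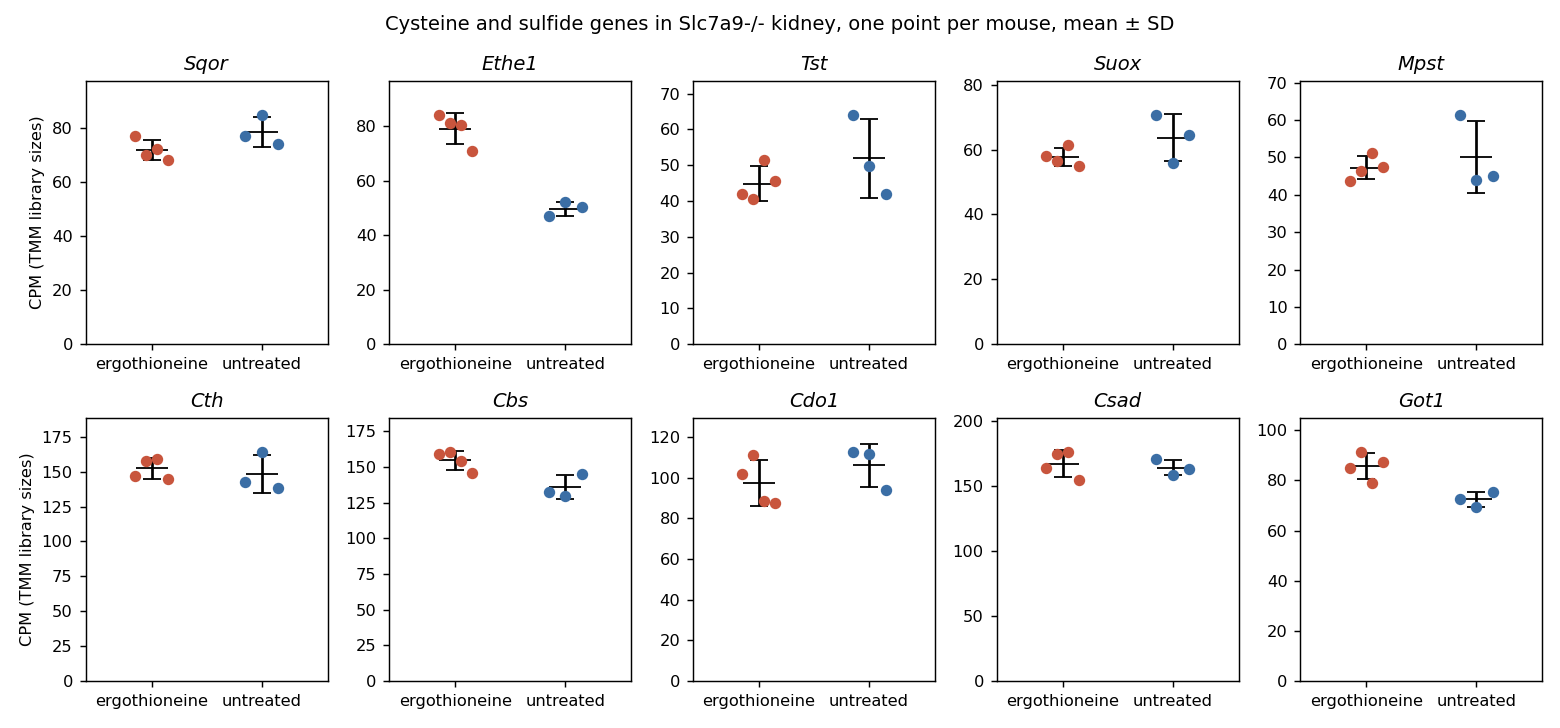
Levels of the 10 genes in CPM (vertical axes from 0) in the 4 ergothioneine and 3 untreated kidneys, with a point per mouse and the mean ± SD. Ethe1, Got1 and Cbs are the panels in which the groups do not touch, and Ethe1 has the widest gap, with 70.9 CPM as its lowest ergothioneine value and 52.0 CPM as its highest untreated value.

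Because a ratio of TPM values inside a library does not depend on the scaling between libraries, Ethe1 was also set against its neighbours in the pathway. The Ethe1 to Sqor ratio was 1.265, 1.341, 1.358 and 1.251 in ergothioneine kidneys and 0.743, 0.728 and 0.766 in untreated ones. Ethe1 RNA per length thus stood above Sqor RNA in all 4 ergothioneine libraries and below it in all 3 untreated libraries. The Ethe1 to Suox ratio averaged 2.36 ± 0.135 (SD, n = 4) in ergothioneine and 1.37 ± 0.230 (SD, n = 3) in untreated kidneys, and the Ethe1 to Tst ratio 1.20 ± 0.172 and 0.668 ± 0.160. The groups did not overlap in any of these 3 ratios, which share the Ethe1 values and were not tested.

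Mpst encodes 3-mercaptopyruvate sulfurtransferase, which takes sulfur from the keto acid of cysteine and releases it as sulfide. It is the paralog and neighbour of Tst: Mpst (chromosome 15, 78406416 to 78414013, plus strand) is transcribed away from Tst, with 508 bases between the annotated starts. Mpst stood at 43.7, 46.5, 51.1 and 47.5 CPM in ergothioneine kidneys, against 61.3, 44.02 and 45.0 CPM in untreated ones. As with Tst, untreated library 1 was the highest of the untreated kidneys and ergothioneine library 3 the highest of the ergothioneine kidneys.

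The log2 fold change of Mpst was -0.09 ± 0.11 (edgeR adjusted p = 0.718), and it was 0.09 without untreated library 1. The coefficient of variation among untreated kidneys was 19.4% for Mpst and 21.4% for Tst, where the median of 3638 genes in the same CPM range was 5.85%. Among ergothioneine kidneys it was 6.54% for Mpst and 10.96% for Tst, with a median of 4.90%. The Mpst to Tst ratio in TPM was steadier than either level, at 0.856 ± 0.0524 (SD, n = 4) in ergothioneine and 0.783 ± 0.0760 (SD, n = 3) in untreated kidneys, with overlapping groups.

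Cysteine itself is made by Cbs, cystathionine beta-synthase, which joins homocysteine to serine, and Cth, cystathionine gamma-lyase, which releases cysteine, and both enzymes can also release hydrogen sulfide. Cbs (chromosome 17, 31608894 to 31637238, minus strand) stood at 159, 160, 154 and 146 CPM in ergothioneine kidneys, against 133, 130 and 145 CPM in untreated ones. The groups did not overlap, though ergothioneine kidney 4 (145.7 CPM) and untreated kidney 3 (145.1 CPM) nearly met, and the log2 fold change of 0.19 ± 0.06 missed the threshold (edgeR adjusted p = 0.0651). It passed without untreated library 3 (0.24, adjusted p = 0.0346) or without ergothioneine library 4 (0.22, adjusted p = 0.0478), and with no filter on low counts (0.20, adjusted p = 0.0373). Against untreated library 3 alone it was 0.10 (adjusted p = 0.6).

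Cth (chromosome 3, 157894248 to 157925077, minus strand) stood at 147, 158, 159 and 145 CPM in ergothioneine kidneys, against 143, 164 and 138 CPM in untreated ones. The untreated kidneys enclosed all ergothioneine values (log2 fold change 0.04 ± 0.07, edgeR adjusted p = 0.814, 95% interval -0.10 to 0.18). Of all 10 genes, groups did not overlap in 3, all higher, where this held for 9.46% of tested genes as higher and 9.11% as lower.

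**Figure D2:**
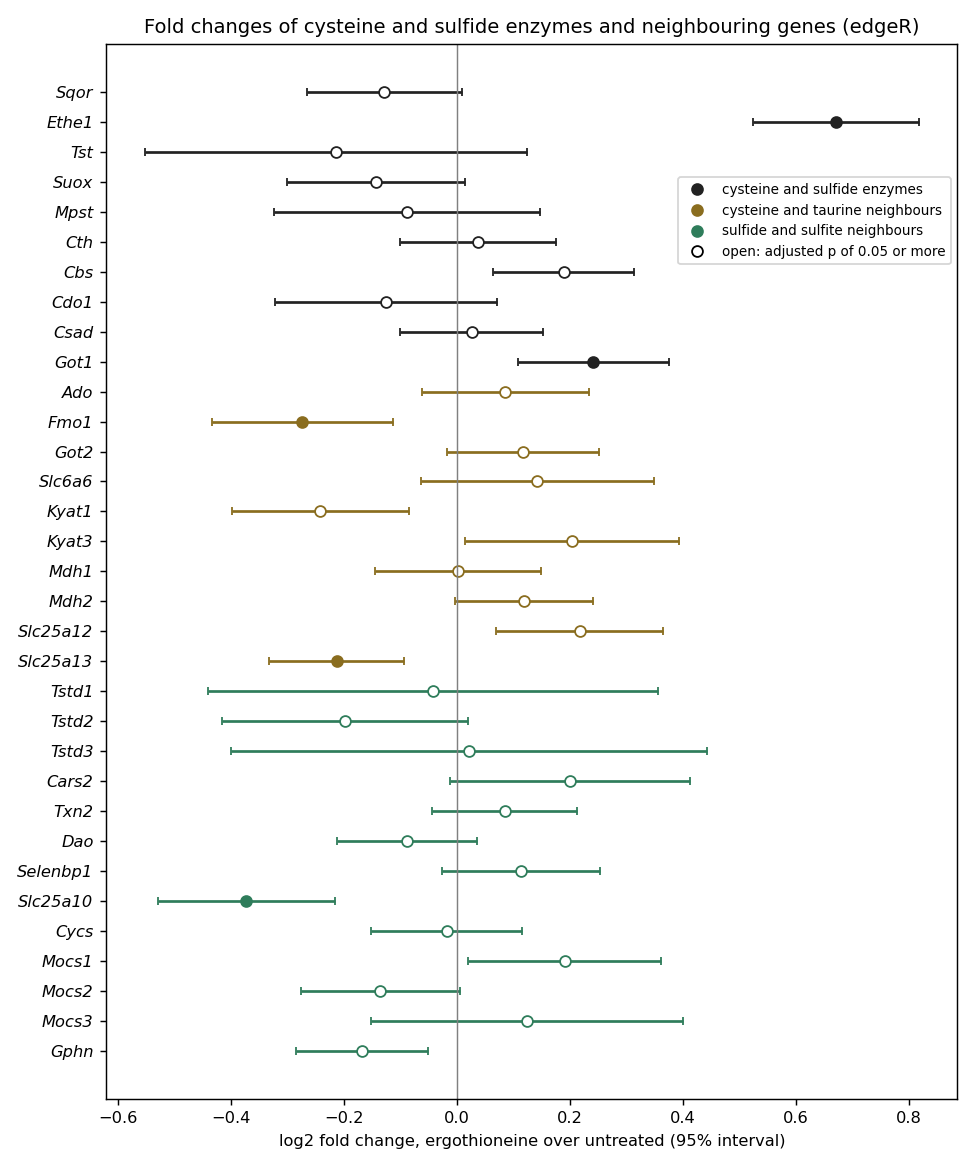
Log2 fold changes (horizontal axis, ergothioneine over untreated) with 95% intervals for the 10 enzymes and the tested genes of 2 neighbouring lists, filled where the adjusted p was under 0.05 by edgeR. Ethe1 at 0.67 lies to the right of every other gene drawn, and the filled points below 0 are Fmo1, Slc25a13 and Slc25a10.

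The oxidative route to taurine runs through Cdo1, the cysteine dioxygenase that makes cysteine sulfinate, and Csad, which decarboxylates it to hypotaurine. Cdo1 stood at 102, 111, 88.4 and 87.7 CPM in ergothioneine kidneys, against 113, 112 and 93.9 CPM in untreated ones. Ergothioneine kidneys 1 and 2 lay among the untreated values and kidneys 3 and 4 below them, and the log2 fold change of -0.13 ± 0.09 did not pass (edgeR adjusted p = 0.499). It was 0.05 against untreated library 3 alone. Adipose tissue is a known site of Cdo1 expression, and fat cell markers moved with the groups. All 7 of the tested fat cell markers (of 9 listed) were called lower by edgeR and by DESeq2. Of all genes, edgeR called 3.57% of those tested lower, and DESeq2 598 of 16247. The summed level of the 9 was 19.2 to 36.5 rescaled TPM in ergothioneine kidneys against 88.5 to 104 in untreated ones. Their part in the Cdo1 values was not tested, and in bulk kidney fewer cells of a type and less RNA per cell cannot be told apart.

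Csad (chromosome 15, 102176999 to 102204724, minus strand) stood at 164, 175, 176 and 155 CPM in ergothioneine kidneys, against 171, 159 and 163 CPM in untreated ones. All untreated values lay within the range of the ergothioneine kidneys (log2 fold change 0.03 ± 0.06, edgeR adjusted p = 0.865). Csad shares its locus with Zfp740 on the opposite strand, which had 757 to 1046 counts per library, and whether the authors' counting used the strand is not given in the sources used here, so reads of the 2 genes may not have been told apart. Csad counts were whole numbers in all 7 libraries. The Csad to Cdo1 ratio in TPM was 1.09 ± 0.121 (SD, n = 4) in ergothioneine and 0.978 ± 0.104 (SD, n = 3) in untreated kidneys, with overlapping groups.

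Got1, the cytosolic aspartate aminotransferase, stands at a branch point: it transaminates cysteine to the substrate of Mpst, takes cysteine sulfinate away from taurine synthesis, and serves the malate-aspartate shuttle. Got1 (chromosome 19, 43499752 to 43524605, minus strand) stood at 84.9, 91.3, 79.1 and 87.5 CPM in ergothioneine kidneys, against 72.7, 69.4 and 75.4 CPM in untreated ones. All ergothioneine values exceeded all untreated ones, with ergothioneine kidney 3 nearest to the untreated group. The log2 fold change was 0.24 ± 0.06 (95% interval 0.11 to 0.37; edgeR adjusted p = 0.0265), a rise of 18.2%, and 26.2% of tested genes had an absolute log2 fold change as large or larger.

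The call of Got1 was lost in 5 of the 7 fits that left out 1 library. These were the fits without untreated library 1 or 2 (adjusted p = 0.0768 and 0.0865) and without ergothioneine library 1, 2 or 4 (0.0651, 0.1 and 0.0587), with log2 fold changes of 0.21 to 0.25. It held without untreated library 3 (0.27, adjusted p = 0.033) and without ergothioneine library 3 (0.28, adjusted p = 0.0139). With the range of the library numbers in the table headers as a block, which no label calls a batch, it was lost (0.22, adjusted p = 0.0754), as it was against untreated library 3 alone (0.19, adjusted p = 0.302). On log2(TPM + 1) the sign turned, to -0.14 (limma adjusted p = 0.584), and on rescaled TPM it was 0.24 (limma adjusted p = 0.348).

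**Figure D3:**
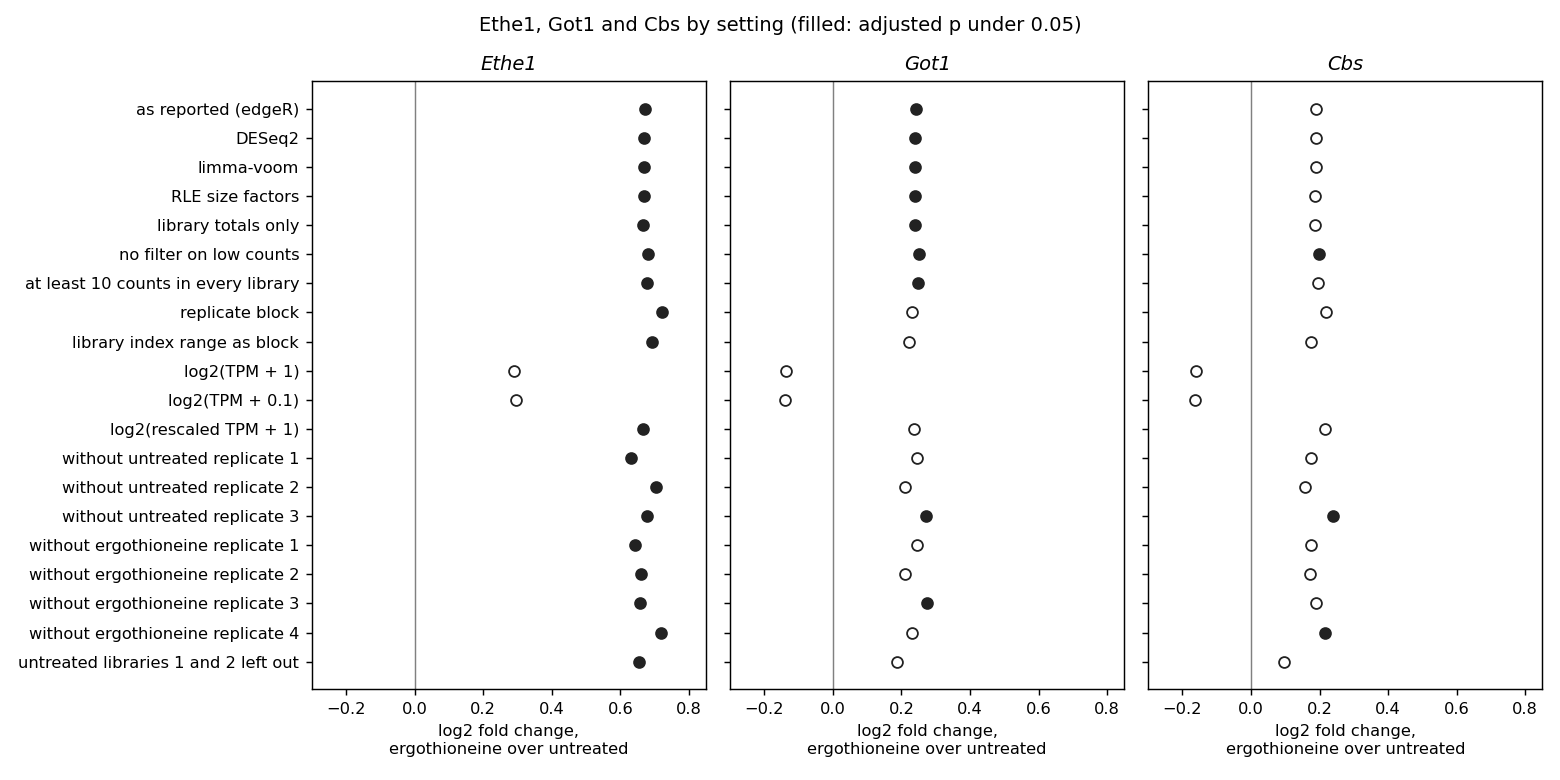
Log2 fold changes (horizontal axes, ergothioneine over untreated) of Ethe1, Got1 and Cbs under each processing setting (vertical axis), filled where the adjusted p was under 0.05. Ethe1 is filled everywhere except on the 2 deposited TPM scales, at 0.29, while Got1 and Cbs change between filled and open, and lie below 0 on those scales.

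Per length, Cth was the most abundant of the 10 transcripts and Suox the least. Over all 7 kidneys Cth averaged 157 rescaled TPM (143.5 to 170.7). The highest Csad value (143.2) lay just below that range, and the highest Cdo1 value (144.3) just inside it. Csad, Cdo1 and Cbs followed at means of 131, 126 and 111 rescaled TPM, then Tst at 92.0, Ethe1 at 86.5, Sqor at 82.2, Mpst at 75.4 and Got1 at 74.2. Suox averaged 45.5 rescaled TPM (39.6 to 52.6), below Got1 in all 7 libraries. From Csad down to Got1 the ranges of adjacent genes overlapped, so their order is not fixed beyond the spread between kidneys. The place of Ethe1 differed between the groups: its rescaled TPM of 94.6 to 109 in ergothioneine kidneys lay above every Sqor value there (75.6 to 82.3), and its 59.5 to 70.7 in untreated kidneys below every Sqor value there (80.1 to 92.3).

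**Figure D4:**
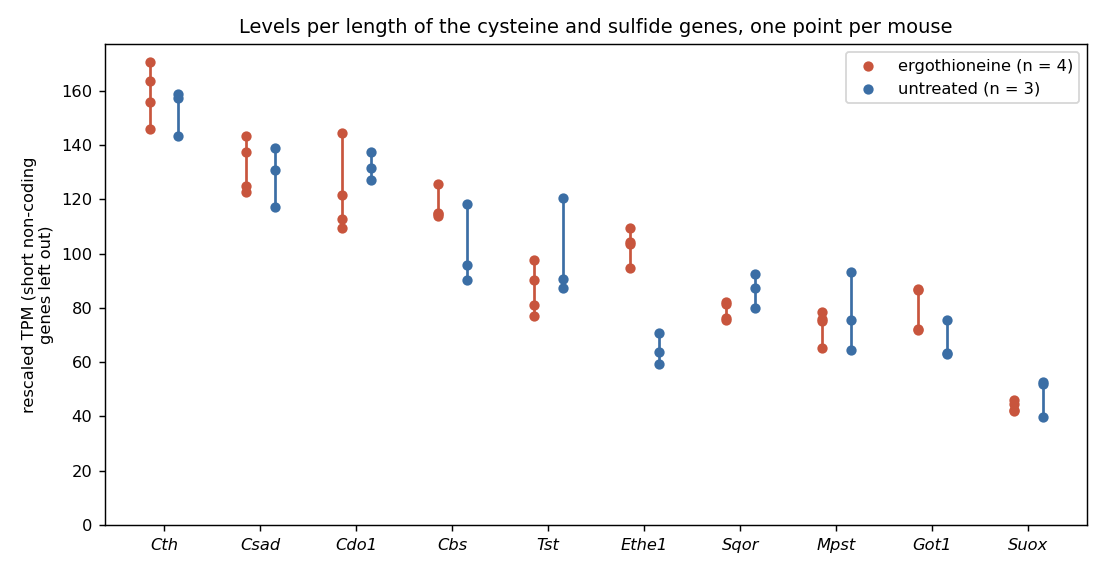
Levels per length of the 10 genes in rescaled TPM (vertical axis from 0), ordered by their mean over 7 kidneys, with a point per mouse and lines from the lowest to the highest value of each group. Cth stands highest and Suox lowest, and Ethe1 has its ergothioneine points (94.6 to 109) clear of its untreated points (59.5 to 70.7).

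Genes around the cysteine and taurine route were read from a list of 11, of which 10 were tested, 0 were higher and 2 lower. At the same adjusted p under 0.05 by edgeR, 3.58% of all tested genes were higher and 3.57% lower. At an unadjusted p under 0.05, 2 were higher and 3 lower (20.8% of all tested genes passed in either direction). DESeq2 called 0 higher and 2 lower, where it called 545 of 16247 genes higher and 598 lower. Fmo1, a flavin monooxygenase that oxidises hypotaurine to taurine, stood at 482, 534, 542 and 439 CPM in ergothioneine kidneys, against 639, 559 and 611 CPM in untreated ones. Its groups did not overlap (log2 fold change -0.27 ± 0.08, edgeR adjusted p = 0.0365). Slc25a13, the aspartate-glutamate carrier citrin, stood at 124, 128, 125 and 122 CPM in ergothioneine kidneys, against 152, 135 and 147 CPM in untreated ones (-0.21 ± 0.06, edgeR adjusted p = 0.0295). The call of Fmo1 was lost without untreated library 1 or 3 (adjusted p = 0.146 and 0.104) or ergothioneine library 1 or 4 (0.118 and 0.0857), and that of Slc25a13 without these (0.146, 0.0796, 0.0851 and 0.0709) or ergothioneine library 2 (0.0599).

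Beside these falls, 3 of the 12 proximal tubule markers (Slc13a3, Fbp1 and Acsm2) were lower and 0 higher by edgeR, and 5 lower and 1 higher by DESeq2. Of all tested genes, edgeR called 3.57% lower and 3.58% higher, and DESeq2 called 598 of 16247 lower and 545 higher. The part of these markers in the Fmo1 and Slc25a13 values was not tested. The taurine transporter gene Slc6a6 averaged 896 ± 111 CPM (SD, n = 4) in ergothioneine and 812 ± 84.8 CPM (SD, n = 3) in untreated kidneys (0.14 ± 0.10, edgeR adjusted p = 0.454). Got2, the mitochondrial counterpart of Got1, had a log2 fold change of 0.12 ± 0.06 (edgeR adjusted p = 0.323). Gadl1, which encodes a decarboxylase related to Csad, had 0 counts in all 7 libraries, where a count of 0 allows up to 0.152 to 0.202 CPM by library, and was not tested.

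Of 15 genes listed around sulfide and sulfite, 13 were matched and tested, and Tmt1a and Tmt1b were not analysed here. By edgeR's adjusted p, 0 were higher and 1 was lower, where 3.58% of all tested genes were higher and 3.57% lower. At an unadjusted p under 0.05, which 20.8% of all tested genes passed, 1 was higher and 2 lower. DESeq2 called 0 higher and 1 lower, where it called 545 of 16247 genes higher and 598 lower. The gene that fell was Slc25a10, the mitochondrial dicarboxylate carrier, which also carries sulfate and thiosulfate. It stood at 283, 274, 303 and 262 CPM in ergothioneine kidneys, against 391, 316 and 383 CPM in untreated ones. No ergothioneine kidney reached the lowest untreated one, and the log2 fold change was -0.37 ± 0.07 (95% interval -0.53 to -0.22; edgeR adjusted p = 0.0053). Without each library in turn the adjusted p of Slc25a10 ranged from 0.000384 to 0.0338. Fat cell markers and some proximal tubule markers were also lower, as given above, and their part in the Slc25a10 values was not tested.

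Among the genes that did not pass were 4 needed for the molybdenum cofactor of sulfite oxidase. Gphn, which inserts molybdenum, averaged 71.9 ± 1.42 CPM (SD, n = 4) in ergothioneine and 80.7 ± 1.08 CPM (SD, n = 3) in untreated kidneys, with groups that did not overlap (log2 fold change -0.17 ± 0.06, edgeR adjusted p = 0.0789). Mocs1, the first enzyme of cofactor synthesis, had 0.19 ± 0.08 (edgeR adjusted p = 0.181), Mocs2 -0.14 ± 0.07 (0.265) and Mocs3 0.12 ± 0.13 (0.661). Cars2, the mitochondrial cysteinyl-tRNA synthetase that also makes cysteine persulfide, had 0.20 ± 0.10 (edgeR adjusted p = 0.273). Selenbp1, a methanethiol oxidase that yields sulfide, had 0.11 ± 0.07 (0.363).

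The genes with profiles most like that of Ethe1 over the 7 libraries, by the root mean square difference of centred log2 CPM, were Ddc (0.084), Tmed6 (0.087) and Ppm1h (0.092). Ddc, which encodes the decarboxylase that makes dopamine in the proximal tubule, stood at 93.4, 90.5, 91.3 and 75.8 CPM in ergothioneine kidneys, against 49.9, 49.0 and 55.3 CPM in untreated ones. Ddc was picked for its likeness to Ethe1 over these libraries, so its lowest ergothioneine value also being in kidney 4 is no separate observation. The genes most like Got1 by the same measure were Lzts3 (0.031), Xkr8 (0.031) and Trp53inp2 (0.032).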

How the data were processed

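Total RNA of frozen kidney was depleted of ribosomal RNA and made into stranded libraries, per the labels' protocols. Per the submitters' processing notes, which give no roles, the tools included STAR 2.7.10a, RSEM 1.3.1 and Salmon 1.10.1, and the build was GRCm38. The authors deposited expected counts (estimated counts, 3.61% of values not whole) and TPM for each gene. Symbols and positions came from GENCODE M21 (GRCm38), which held 45143 of the 45706 identifiers.

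Rounded counts entered edgeR 4.0.16 (R 4.3.3), with filterByExpr (15399 genes, all 10 enzymes included), TMM, robust quasi-likelihood F test, Benjamini-Hochberg adjustment over all tested genes, threshold 0.05. Standard errors are the log2 fold change over the square root of F, and 95% intervals use the t quantile at the test's degrees of freedom. Rescaled TPM leave out genes that are not protein-coding and have a median transcript under 400 nt. Named were the 10 enzymes, list members past the threshold or untested, and the 3 genes most like each called enzyme; other list genes were named after their values were seen. Members, lists, alternatives and motifs were chosen with earlier results of these data known. Alternatives were DESeq2 1.42.0, limma 3.58.1 (voom, and trend on TPM), other scalings and filters, blocks, and libraries left out. The p-values set the difference between the groups against the spread between kidneys of a group, estimated with information shared across genes. At this depth the standard error of a log2 fold change was 0.11 for the median gene. Squared differences between the closest replicates still averaged 7.98 times the variance from sampling noise (chi-square per degree of freedom), so none was counted as a copy.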

Additional observations from a re-analysis of the deposited data

How the results depend on the processing

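The values were recomputed under 19 alternatives each. Ethe1 kept its direction in all 19 and its call in all except log2(TPM + 1) and log2(TPM + 0.1) (0.29 and 0.29). The number of enzymes called higher, 2 as reported, was 1 with the replicate block, with the library index range as a block, on rescaled TPM and against untreated library 3 alone, 0 on log2(TPM + 1) and on log2(TPM + 0.1), and 3 with no filter on low counts, where Cbs passed. Without single libraries it was 1 to 3. No enzyme was called lower under any alternative. On log2(TPM + 1) and log2(TPM + 0.1) the signs turned for Got1 (-0.14 and -0.14), Cbs (-0.16 and -0.16), Cth (-0.32 and -0.33) and Csad (-0.34 and -0.34), where the median of all tested genes was -0.31 and -0.37. Against untreated library 3 alone Tst was 0.095, Mpst 0.073 and Cdo1 0.054. Without single libraries Mpst ranged from -0.17 to 0.088, Cth from -0.0096 to 0.12 and Csad from -0.0019 to 0.063. The cause of these changes was not tested.

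The cysteine and taurine neighbours called lower, 2 as reported, were 0 with the replicate block, with the index range as a block, on rescaled TPM and against untreated library 3 alone, and 0 to 3 without single libraries. Those called higher, 0 as reported, were 1 with no filter on low counts and against untreated library 3 alone, and 0 to 1 without single libraries. The sulfide and sulfite neighbours called lower, 1 as reported, were 2 with the index range as a block and 0 on rescaled TPM. Of all genes, 1102 were called, 280 on rescaled TPM, 556 against untreated library 3 alone and 692 to 1103 without single libraries. On log2(TPM + 1), 3.51% of the calls were higher, against 50.1% as reported.

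The labels do not say whether same-numbered mice were paired. Deviations of the same-numbered libraries from their group means correlated at 0.0272, -0.0679 and 0.00274. These values showed no pairing but cannot establish that there was none. With the replicate block Got1 had an adjusted p of 0.111 and Ethe1 of 6.70e-05 (edgeR). With the library index range as a block Got1 had 0.0754. The labels give no batch, and with 3 untreated kidneys the number of mice limits the precision.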

Other observations

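Markers of other kidney cell types were read beside the enzymes as whole lists, with the summed level in rescaled TPM. By edgeR, 3.58% of all tested genes were called higher and 3.57% lower. At an unadjusted p under 0.05, 10.4% were higher and 10.4% lower. DESeq2 called 545 of 16247 genes higher and 598 lower. Intercalated cell markers were higher in 3 of 4, namely Slc4a1, Slc26a4 and Atp6v1g3 (3 also at an unadjusted p under 0.05 and by DESeq2). The other marker, Foxi1, had a log2 fold change of 0.0099 (edgeR adjusted p = 0.984). Summed, the 4 markers stood at 92.1 to 114 in ergothioneine kidneys against 72.7 to 79.3 in untreated ones. Markers of the loop of Henle were higher in 1 of 4, Slc12a1 (2 at an unadjusted p under 0.05, 1 by DESeq2). The 4 loop markers summed to 2628 to 2955 against 2483 to 2612, and Slc12a1 alone stood at 566 to 693 against 490 to 493. Of the leukocyte markers, 5 of 6 were tested and 1, Ptprc, was lower (1 also at an unadjusted p under 0.05 and by DESeq2). All 6 leukocyte markers summed to 39.1 to 53.9 against 48.6 to 55.5, and Ptprc alone stood at 7.01 to 10.1 against 10.2 to 14.1. None of the 4 markers of the distal convoluted tubule (674 to 793 against 545 to 655), of collecting duct principal cells (340 to 425 against 296 to 382) or of endothelium (109 to 127 against 112 to 134) was called by edgeR. At an unadjusted p under 0.05, 1, 0 and 0 markers of these lists were higher and 0, 0 and 0 lower, and DESeq2 called 1, 0 and 0. The distal marker was Calb1 in both cases (log2 fold change 0.86, edgeR adjusted p = 0.0552). Its groups did not overlap, while those of Slc12a3, Pvalb and Trpm6 did.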
